A study of Mus musculus with 6 samples.

Results

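The 10 genes described here mark radial glia and neural stem cells (NSCs), and their RNA levels were compared between cultured NSCs from miR-151 conditional knockout (cko) and control (ctrl) mouse embryos. The genes are *Fabp7*, *Ptprz1*, *Prom1*, *Hopx*, *Nr2e1*, *Msi1*, *Msi2*, *Apoe*, *Clu* and *Cst3*. They were taken by name as widely used marker genes of these cells, and were found by their Ensembl identifiers. All 10 were among the 32493 genes of the count table and among the 16710 genes with enough counts to be tested.

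The cko genotype was miR-151 fl/fl with the Emx1-IRES-Cre driver, and the ctrl genotype was miR-151 fl/fl lacking Cre. Both were embryos of stage E14.5 on a C57BL/6J background. Emx1-IRES-Cre drives Cre recombinase in the dorsal telencephalon, so that cells of another origin in a culture would keep the floxed alleles. NSCs were dissected from the lateral ventricles and passed through 3 generations in culture before RNA was sequenced. The sample labels call the control genotype wt. They name a column kit for the RNA and a medium with B27 and antibiotics, where the study's methods name TRIzol and a medium that also holds EGF and bFGF. The study describes the embryos as littermates, without saying which libraries share a litter. Neither source says whether the libraries of a genotype came from separate embryos or cultures, so the p-values measure the spread between these libraries, which may be technical.

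Radial glia are the stem cells of the developing cortex. They line the ventricle, send a long process to the surface of the brain, and give rise to neurons first and to glia later. Notch signalling keeps them undifferentiated, and the cleaved Notch receptor acts through the DNA-binding protein RBPJ. Some radial glia genes, such as *Fabp7* and *Nr2e1*, encode regulators or carriers inside the stem cell, whereas *Apoe*, *Clu* and *Cst3* encode secreted proteins that radial glia share with astrocytes.

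Values are CPM, the counts of a gene scaled by the total of its library, normalized by TMM, which corrects for library composition. The total counts were between 17883796 and 23335736 per library, and a floor of 3 counts corresponds to between 0.129 and 0.168 CPM. The column of ctrl replicate 2 equalled the mean of ctrl 1 and ctrl 3, rounded up, in 32493 of 32493 genes, and was therefore not counted as a library, which left 2 ctrl and 3 cko libraries. In bulk RNA, fewer cells of a type and less RNA per cell cannot be told apart. NSC genes *Sox2*, *Nes* and *Vim* were abundant in all 5 libraries, with *Sox2* between 556 and 626 CPM. Microglia, which are rich in *Apoe*, *Cst3* and *Ctsb*, left almost no trace: the 12 microglial markers summed to between 0.230 and 1.87 CPM, and *Cx3cr1*, *Tmem119*, *Itgam* and *Trem2* were at 0 counts in every library. *Xist* and 4 Y-linked genes were present in every library, with *Xist* between 2557 and 2889 CPM in ctrl and between 787 and 894 CPM in cko, and *Kdm5d* between 25.1 and 27.0 CPM in ctrl and between 67.6 and 69.1 CPM in cko. These sex-linked genes moved with genotype, so the sex of the cells and the genotype cannot be told apart in these libraries. The labels give no sex, and the part of sex in the results was not tested.

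The promoters shown here belong to the member with the highest level per kilobase of exon (*Fabp7*) and to members that passed the test in opposite directions (*Prom1* and *Apoe*). The sequences are from RefSeq on GRCm38.p6 and run from 250 bases before to 50 bases after a transcription start. Capitals mark the letters TGGGAA, or TTCCCA on the other strand, the core that RBPJ binds. The *Fabp7* window is chr10:57784673-57784972 on the plus strand, the *Prom1* window is chr5:44101687-44101986 on the minus strand, and the *Apoe* window is chr7:19699139-19699438 on the minus strand.
Fabp7: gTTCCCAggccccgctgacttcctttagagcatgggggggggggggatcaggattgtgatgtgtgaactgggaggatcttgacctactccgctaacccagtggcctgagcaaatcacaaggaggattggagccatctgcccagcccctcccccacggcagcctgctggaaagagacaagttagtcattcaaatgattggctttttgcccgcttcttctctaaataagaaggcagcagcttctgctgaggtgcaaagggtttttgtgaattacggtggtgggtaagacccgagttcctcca
Prom1: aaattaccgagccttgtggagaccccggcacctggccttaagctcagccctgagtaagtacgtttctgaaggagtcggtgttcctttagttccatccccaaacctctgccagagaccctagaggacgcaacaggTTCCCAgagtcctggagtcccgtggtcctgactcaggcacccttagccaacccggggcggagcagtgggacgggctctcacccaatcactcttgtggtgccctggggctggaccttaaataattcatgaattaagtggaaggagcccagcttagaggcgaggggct
Apoe: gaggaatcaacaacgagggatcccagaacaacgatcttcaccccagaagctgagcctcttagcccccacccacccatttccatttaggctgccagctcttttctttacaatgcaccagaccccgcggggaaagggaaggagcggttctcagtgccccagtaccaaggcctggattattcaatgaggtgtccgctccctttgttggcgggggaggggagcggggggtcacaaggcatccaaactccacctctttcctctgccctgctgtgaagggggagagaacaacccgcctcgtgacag

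The *Fabp7* window held the core with its first letter at position -249 from the start, and the *Prom1* window held it at -116. *Nr2e1* and *Cst3* had it at -150 and -144. The *Apoe* window above did not hold the letters, and of its other windows, which begin inside the gene, the one at chr7:19698349-19698648 held them at position 8. In all, 5 of the 8 members with a window had the core in at least 1 of them, and 5 of 14 windows (35.7%) held it, where 25.6% of the 32851 mouse promoter windows did. *Clu* and *Msi1* had no window in the table used. The core was present in windows of members that were higher, lower and not past the test in cko NSCs. A match gives only the presence of these letters.

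Of the 10 genes, 1 was higher and 2 were lower in cko NSCs. *Prom1* rose 1.62-fold, while *Apoe* and *Clu* fell by 52.4% and 52.6%. By edgeR's quasi-likelihood test at a Benjamini-Hochberg adjusted p under 0.05, 7.86% of all tested genes were higher and 8.57% were lower, and among as few as 10 genes the counts of 1 and 2 do not set the members apart from that background. The same shares are the background for the counts in the gene lists below. At the limits that the study used (0.9 on the log2 scale and, without adjustment, a p of 0.01), 0 members were higher (2.39% of tested genes) and 2 were lower (4.17%), again *Apoe* and *Clu*. At an unadjusted p under 0.05, 1 member was higher (15.9% of tested genes) and 3 were lower (16.7%), since *Nr2e1* joined *Apoe* and *Clu*. DESeq2 at an adjusted p under 0.05 called 1 member higher, *Prom1*, and 0 lower, where 10% and 10.8% of the 15738 genes to which it gave an adjusted p were higher and lower. The median log2 fold change of the members was -0.07, with 4 above and 6 below 0, against a median of -0.0026 over all tested genes. All cko libraries were above all ctrl libraries for *Fabp7* and *Prom1* (2 of 10; 25.4% of tested genes), and below them for *Nr2e1*, *Apoe* and *Clu* (3 of 10; 24.3%).

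**Figure D1:**
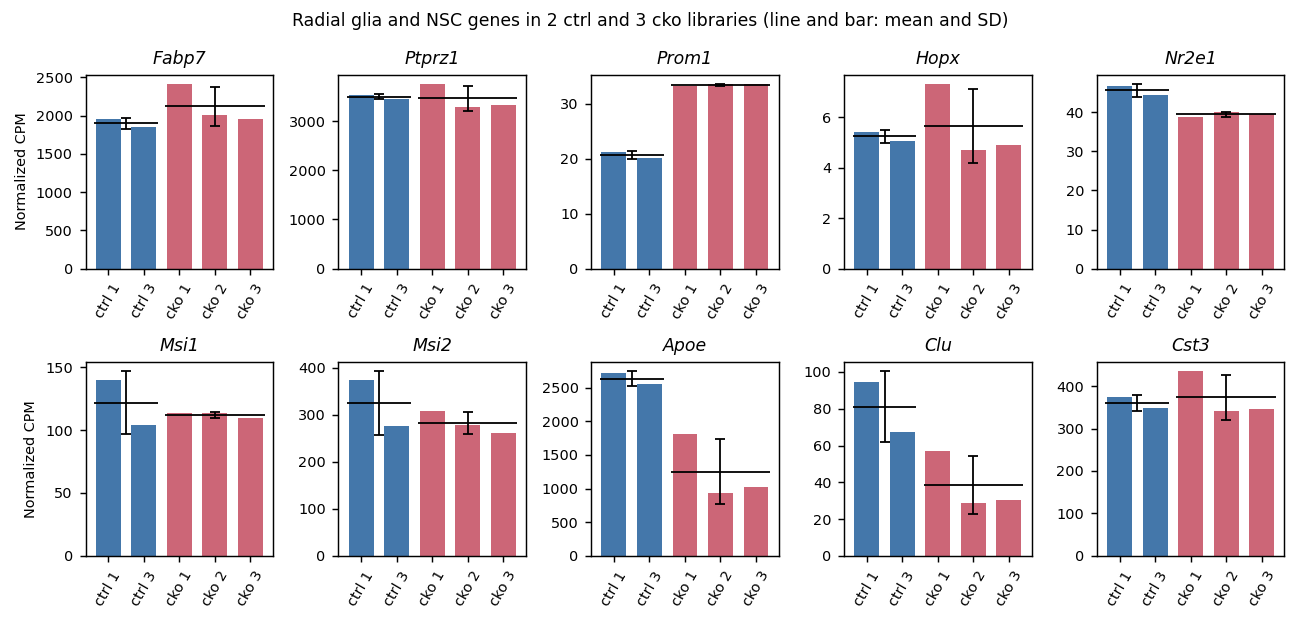
Normalized CPM of each of the 10 genes in the 2 ctrl (blue) and 3 cko (red) libraries, each panel on its own linear axis from 0, with lines at the mean and error bars of 1 SD. *Prom1* stood near 20 CPM in ctrl and above 33 CPM in each cko library, *Apoe* and *Clu* were lowest in cko 2 and cko 3, and most other genes differed little between genotypes.

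*Fabp7* encodes the brain fatty acid-binding protein, a lipid carrier in the cytoplasm of radial glia and a classical marker of them. It lies on chromosome 10 from 57784881 to 57788450 on the plus strand (ENSMUSG00000019874; positions of all genes are those of GENCODE M21 on GRCm38). Its levels were 1949 and 1848 CPM in ctrl 1 and ctrl 3, and 2416, 2002 and 1950.5 CPM in cko 1, cko 2 and cko 3. The genotypes did not overlap, but cko 3 and ctrl 1 were almost level, and cko 1 stood above all other libraries. The means were 1899 ± 71.5 CPM (SD, n = 2) and 2123 ± 255 CPM (SD, n = 3), and the log2 fold change was 0.16 (95% interval -0.10 to 0.42; edgeR adjusted p = 0.361). The interval holds folds from 0.932 to 1.34.

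Within the FABP family, *Fabp5* differed from *Fabp7* in sign, but neither gene passed the test. *Fabp5*, the epidermal form that neural progenitors also express, measured 475 and 391 CPM in ctrl and 395, 296 and 298 CPM in cko (log2 fold change -0.39, edgeR adjusted p = 0.112). The ratio of *Fabp7* to *Fabp5* was therefore 4.10 and 4.72 in ctrl and 6.12, 6.76 and 6.55 in cko. All cko ratios were above all ctrl ratios, and the exact two-sided permutation test gave p = 0.1, the smallest value that 2 against 3 libraries allow (adjusted p = 0.15 over 6 ratios). Of the 11 family genes set beside *Fabp7*, 10 were in the table and 3 could be tested, with a median log2 fold change of -0.39. *Fabp3*, the heart form, rose from between 2.14 and 3.36 CPM to between 5.09 and 5.62 CPM (log2 fold change 0.98, edgeR adjusted p = 0.0379).

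*Ptprz1* encodes a receptor-type tyrosine phosphatase of the surface of radial glia and glial precursors, which binds pleiotrophin and tenascins. It is on chromosome 6 from 22875502 to 23052916 (plus strand, ENSMUSG00000068748) and had the highest CPM of the 10 genes. The libraries held 3539 and 3462 CPM in ctrl, and 3763, 3300 and 3330 CPM in cko. Cko 1 was the highest and cko 2 the lowest of the 5, so the genotypes overlapped. The means were 3500 ± 54.3 CPM (SD, n = 2) and 3465 ± 259 CPM (SD, n = 3), with a log2 fold change of -0.015 (95% interval -0.23 to 0.20; edgeR adjusted p = 0.934). This interval spans folds from 0.852 to 1.15.

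The ligands and partners of this receptor were not level in the same way. Of 12 genes, 3 were higher and 3 were lower at an edgeR adjusted p under 0.05, and their median log2 fold change was -0.24. *Ptn*, which encodes the ligand pleiotrophin, measured 1282 and 1358 CPM in ctrl and 1679, 1554 and 1572 CPM in cko, without overlap (log2 fold change 0.28, edgeR adjusted p = 0.0573). *Cntn1*, a contactin that the receptor binds on other cells, rose from 362 and 319 CPM to between 587 and 637 CPM (log2 fold change 0.83, edgeR adjusted p = 0.0023). The tenascins went opposite ways. *Tnc* rose from 421 and 591 CPM to 707, 964 and 915 CPM (log2 fold change 0.77, edgeR adjusted p = 0.0288). *Tnr*, a tenascin made by oligodendrocyte-lineage cells and neurons, fell from 901 and 856 CPM to 380, 260 and 292 CPM (64.7% lower, edgeR adjusted p = 0.0020). *Ncam1* and *Nrcam*, adhesion molecules, were lower by -0.42 and -0.44 on the log2 scale, and *Ctnnb1*, which encodes the substrate β-catenin, was higher by 0.33. Of 6 tested oligodendrocyte markers, 5 were lower in cko. Their summed level was between 1020 and 1118 CPM in ctrl and between 314 and 362 CPM in cko. Of 7 oligodendrocyte precursor markers, 2 were higher and 2 were lower, with a median log2 fold change of 0.38. They summed to between 3087 and 3624 CPM in ctrl and between 3707 and 3829 CPM in cko. Neuron markers summed to between 1102 and 1227 CPM in ctrl and between 1196 and 1225 CPM in cko. The part of these cell types in the *Tnr* difference was not tested.

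*Prom1* encodes prominin-1 (CD133), a pentaspan protein of membrane protrusions that is used to isolate NSCs. It lies on chromosome 5 from 43993620 to 44102032 on the minus strand (ENSMUSG00000029086). It measured 21.1 and 20.1 CPM in ctrl, and 33.2, 33.5 and 33.5 CPM in cko. The cko libraries lay close together and well above both ctrl libraries. The means were 20.6 ± 0.726 CPM (SD, n = 2) and 33.4 ± 0.206 CPM (SD, n = 3). The log2 fold change was 0.70 with a standard error of 0.092 (95% interval 0.48 to 0.91), and the edgeR adjusted p was 0.0044. *Prom1* stayed at an adjusted p under 0.05 in 13 of 13 alternative fits, with log2 fold changes between 0.66 and 0.72 and an adjusted p of at most 0.0388, but its fold change was under the limit of 0.9 that the study used. Measured against *Sox2*, the transcription factor of NSCs, *Prom1* was 0.0363 and 0.0362 in ctrl and 0.0536, 0.0536 and 0.0553 in cko, which do not overlap (exact permutation p = 0.1, the smallest possible; adjusted p = 0.15). An antisense gene, *Gm16401*, shares 424 exonic bases with *Prom1* and had at most 13 counts in any library. The strand setting of the counting is not given, and the part of this overlap in the *Prom1* counts was not tested. Ependymal markers, a cell type that also expresses *Prom1*, summed to between 18.2 and 27.4 CPM in ctrl and between 21.4 and 22.5 CPM in cko, and the 4 that were tested had edgeR adjusted p-values between 0.419 and 0.962.

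*Hopx* encodes a homeodomain-only protein that does not bind DNA and marks outer radial glia and adult NSCs. The gene, on chromosome 5 from 77086988 to 77115121 (minus strand, ENSMUSG00000059325), was among the least abundant members. It measured 5.42 and 5.07 CPM in ctrl, and 7.33, 4.72 and 4.92 CPM in cko. Cko 1 was above, and cko 2 and cko 3 were below, both ctrl libraries. The log2 fold change was 0.10 (95% interval -0.47 to 0.67; edgeR adjusted p = 0.812), an interval that holds folds from 0.723 to 1.59, the widest of the members that did not pass the test. Of the 10 other outer radial glia genes, 8 could be tested. *Moxd1* and *Tnc* were higher, with *Moxd1* at 52.1 and 31.1 CPM in ctrl and between 90.3 and 97.0 CPM in cko (log2 fold change 1.16, edgeR adjusted p = 0.0093). *Itgb5*, an integrin subunit, was lower, at 131 and 188 CPM in ctrl and between 37.2 and 56.8 CPM in cko (log2 fold change -1.87, edgeR adjusted p = 0.0028). The median of the list was -0.14.

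*Nr2e1* encodes TLX, an orphan nuclear receptor that represses transcription and maintains NSC self-renewal. It is on chromosome 10 from 42561963 to 42583632 (minus strand, ENSMUSG00000019803). Its levels were 46.8 and 44.4 CPM in ctrl, and 38.9, 40.2 and 39.5 CPM in cko. All cko libraries were below both ctrl libraries, with little spread within either genotype. The means were 45.6 ± 1.68 CPM (SD, n = 2) and 39.5 ± 0.641 CPM (SD, n = 3), a difference of 13.4% with a log2 fold change of -0.21 (95% interval -0.39 to -0.024). The unadjusted p was 0.032 and the edgeR adjusted p over all tested genes was 0.115, which did not pass. Over the alternatives the adjusted p ran from 0.0175 to 0.305, and the lowest came from the fit of all 6 columns, in which the averaged ctrl column narrows the spread of ctrl.

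Of 14 corepressors and reported targets of TLX, 2 were higher and 1 was lower at an edgeR adjusted p under 0.05, with a median of -0.09. The shares of all tested genes were 7.86% and 8.57%. The corepressors *Hdac1* and *Kdm1a* were higher by 0.38 and 0.26 on the log2 scale (edgeR adjusted p = 0.0218 and 0.048). *Hdac1* measured 89.9 and 80.9 CPM in ctrl and 107, 116 and 111 CPM in cko. *S100b*, an astrocyte gene, fell from 19.2 and 19.7 CPM to 5.76, 3.52 and 2.62 CPM (log2 fold change -2.31, edgeR adjusted p = 0.0034). Targets that TLX represses in NSCs, *Cdkn1a* and *Gfap*, had log2 fold changes of -0.95 and -1.82 and did not pass the test (edgeR adjusted p = 0.121 and 0.126). *Gfap* differed more within ctrl than between genotypes, with 1008 CPM in ctrl 1 and 178 CPM in ctrl 3. *Cdkn1a* measured 142 CPM in ctrl 1 and 403 CPM in ctrl 3, and 117, 157 and 149 CPM in cko. Its ctrl 1 value thus lay inside the cko range.

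*Msi1* and *Msi2* encode the Musashi proteins, which bind RNA and repress translation of mRNAs such as that of *Numb*, an inhibitor of Notch. *Msi1* lies on chromosome 5 from 115429599 to 115455698 (plus strand, ENSMUSG00000054256) and *Msi2* on chromosome 11 from 88339382 to 88718513 (minus strand, ENSMUSG00000069769). *Msi1* measured 139.5 and 104 CPM in ctrl, and 113, 114 and 109 CPM in cko. *Msi2* measured 373 and 277 CPM in ctrl, and 308, 279 and 262 CPM in cko. For both genes ctrl 1 was the highest of the 5 libraries, and ctrl 3 lay below or among the cko libraries.

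The log2 fold change of *Msi1* was -0.12 (95% interval -0.40 to 0.17; edgeR adjusted p = 0.544) and that of *Msi2* was -0.20 (95% interval -0.51 to 0.11; edgeR adjusted p = 0.343). Both rested on which ctrl library was used. Without ctrl 3, which left 1 ctrl library, *Msi1* was lower by -0.31 and *Msi2* by -0.39. Without ctrl 1, which again left 1 ctrl library, the values were 0.10 and 0.021. Over the alternatives that kept both ctrl libraries, the adjusted p ran from 0.313 to 0.699 for *Msi1* and from 0.0547 to 0.594 for *Msi2*. The ratio of *Msi1* to *Msi2* CPM was 0.374 and 0.375 in ctrl and 0.367, 0.408 and 0.417 in cko (exact permutation p = 0.4, where the smallest possible is 0.1; adjusted p = 0.48 over 6 ratios). Cko 2 and cko 3 lay above both ctrl ratios and cko 1 below them. Among 6 reported Musashi targets, *Numb* measured 26.8 and 26.1 CPM in ctrl and between 28.3 and 29.4 CPM in cko (log2 fold change 0.13, edgeR adjusted p = 0.378). *Dcx*, a microtubule protein of young neurons, fell from 148 and 100 CPM to between 37.4 and 54.8 CPM (log2 fold change -1.51, edgeR adjusted p = 0.0049). The other 4 targets had adjusted p-values above 0.05. Of 6 tested neuron markers, which include *Dcx*, 1 was higher, 1 was lower and 4 did not pass, with a median of 0.12. They summed to between 1102 and 1227 CPM in ctrl and between 1196 and 1225 CPM in cko.

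*Apoe* encodes apolipoprotein E, which carries cholesterol between brain cells. It lies on chromosome 7 from 19696109 to 19699188 on the minus strand (ENSMUSG00000002985). It measured 2711 and 2552 CPM in ctrl, and 1815, 928 and 1016 CPM in cko. All cko libraries were below both ctrl libraries, and cko 1 was nearly 1.87 times the mean of cko 2 and cko 3. The means were 2632 ± 113 CPM (SD, n = 2) and 1253 ± 489 CPM (SD, n = 3). The log2 fold change was -1.07 with a standard error of 0.26 (95% interval -1.69 to -0.45; edgeR adjusted p = 0.0338).

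*Clu* encodes clusterin, a secreted chaperone also called apolipoprotein J. It is on chromosome 14 from 65968483 to 65981547 (plus strand, ENSMUSG00000022037). It measured 94.8 and 67.4 CPM in ctrl, and 56.8, 28.8 and 30.1 CPM in cko. The order of the libraries was that of *Apoe*, with cko 1 closest to ctrl. The means were 81.1 ± 19.4 CPM (SD, n = 2) and 38.6 ± 15.8 CPM (SD, n = 3), with a log2 fold change of -1.08 and a standard error of 0.29 (95% interval -1.76 to -0.39; edgeR adjusted p = 0.0462).

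The calls on *Apoe* and *Clu* depended on single libraries. Without cko 2 the adjusted p was 0.117 for *Apoe* and 0.149 for *Clu*, and without cko 3 it was 0.129 and 0.154. Without ctrl 1, which left 1 ctrl library, the log2 fold change of *Clu* was -0.82. Without cko 1 the differences were larger, at -1.44 for *Apoe* (edgeR adjusted p = 0.0029) and -1.47 for *Clu* (0.0088). DESeq2 gave adjusted p-values of 0.0514 and 0.0713. Over all alternatives the adjusted p of *Apoe* ran from 2.85e-33 to 0.129 and that of *Clu* from 6.90e-21 to 0.154, while the fold changes stayed below 0. Both lowest values came from the fit without the filter. There the standard errors were 0.086 and 0.109, against 0.264 and 0.293 in the main fit, with nearly the same fold changes. An error of 0.086 is small beside the spread of *Apoe* in cko (928 to 1815 CPM), so these lowest values are not stronger evidence. The ratio of *Clu* to *Apoe* was 0.0350 and 0.0264 in ctrl and 0.0313, 0.0311 and 0.0297 in cko, with cko inside the range of ctrl (exact permutation p = 0.9; adjusted p = 0.9 over 6 ratios). By contrast, *Apoe* relative to *Fabp7* was 1.39 and 1.38 in ctrl and 0.751, 0.463 and 0.521 in cko, without overlap (exact permutation p = 0.1, the smallest possible; adjusted p = 0.15).

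**Figure D2:**
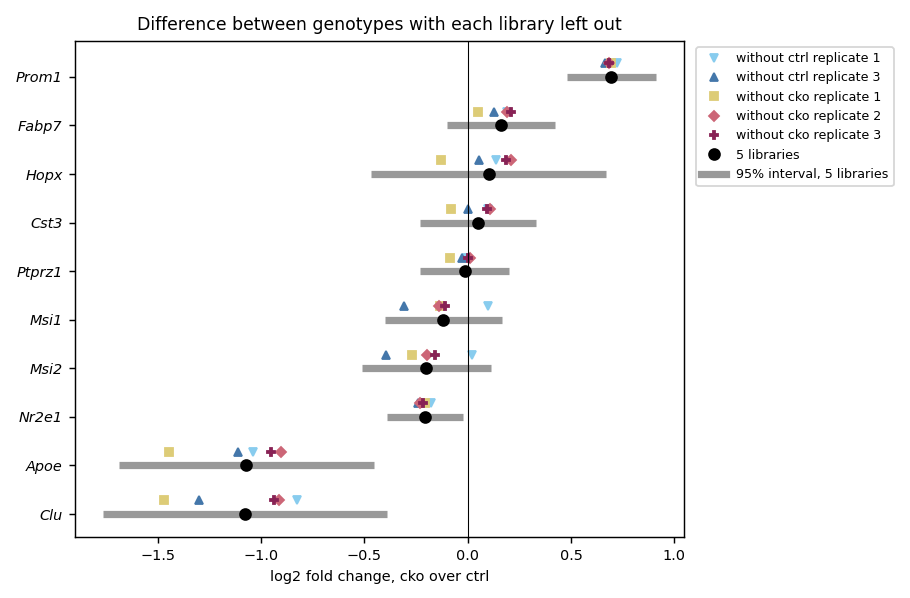
Log2 fold change of cko over ctrl for each gene from edgeR with all 5 libraries (black, with its 95% interval in grey) and with each library left out in turn (coloured marks). *Prom1* stayed between 0.66 and 0.72 throughout, whereas *Apoe* and *Clu* were furthest below 0 without cko 1, and *Msi1* and *Msi2* crossed 0 without ctrl 1.

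The summed astrocyte markers had the same order of libraries. All 8 could be tested, of which 5 were lower in cko, and their median log2 fold change was -1.48. They summed to 3043 and 2008 CPM in ctrl and to 1535, 834 and 869 CPM in cko, so that cko 1 was again the closest to ctrl. *Gja1*, a gap junction gene, measured 430 and 310 CPM in ctrl and 178, 60.9 and 62.7 CPM in cko. Not every marker had this order: *Gfap* and *Aqp4* were higher in cko 1 (298 and 59.8 CPM) than in ctrl 3 (178 and 55.2 CPM). *Aldoc* and *S100b* were lower in ctrl 1 (594 and 19.2 CPM) than in ctrl 3 (662 and 19.7 CPM). *Gfap*, at 1008 CPM in ctrl 1, made up much of the difference between the 2 ctrl sums. Choroid plexus markers were lower too, 2 of 3 tested, but they summed to at most 11.2 CPM. The part of these cells in the *Apoe* and *Clu* differences was not tested. Microglial markers, as given above, were at or near 0.

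**Figure D3:**
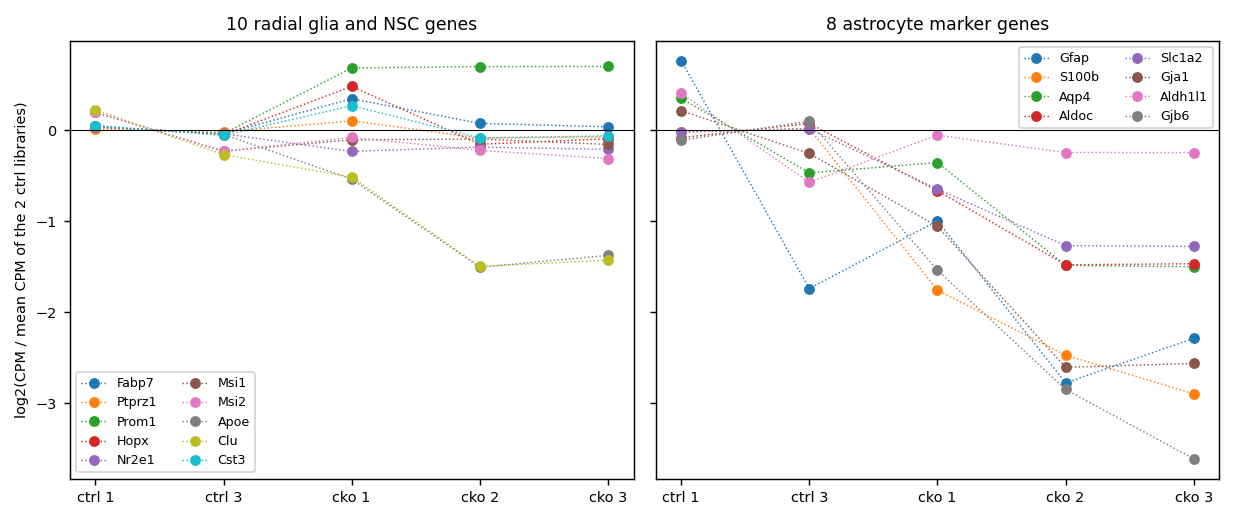
Log2 of each gene's CPM over its ctrl mean in the 5 libraries, for the 10 radial glia and NSC genes (left) and for 8 astrocyte markers (right), with dotted lines only joining the points of a gene. *Apoe* and *Clu* had cko 1 between ctrl and the other cko libraries, while *Prom1* was raised to a like level in the 3 cko libraries. Astrocyte markers such as *Gja1* and *Aldoc* had the same step, but *Gfap* and *Aqp4* had cko 1 above ctrl 3.

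Other apolipoproteins, lipoprotein receptors, cholesterol exporters and related genes were set beside *Apoe*. Of these 16 genes, 13 could be tested, with a median of -0.48. At an edgeR adjusted p under 0.05, 1 was higher and 3 were lower (7.86% and 8.57% of all tested genes). The receptor *Lrp8* measured 81.9 and 87.9 CPM in ctrl and 128, 154 and 159 CPM in cko (log2 fold change 0.79, edgeR adjusted p = 0.0049). In contrast, *Lcat*, which esterifies cholesterol in lipoproteins, the cholesterol exporter *Abcg1* and the receptor *Lrp2*, which takes up lipoproteins, were lower by -1.26, -1.32 and -1.12 on the log2 scale (edgeR adjusted p = 0.0056, 0.018 and 0.0342). *Lrp1*, the most abundant receptor of the list, differed by 0.0069 on the log2 scale, with libraries between 1199 and 1327 CPM (edgeR adjusted p = 0.967), and *Abca1*, which loads lipid onto *Apoe* protein, had a value of -0.64 that did not pass (edgeR adjusted p = 0.163).

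*Cst3* encodes cystatin C, a secreted inhibitor of cysteine proteases. It lies on chromosome 2 from 148871722 to 148875692 (minus strand, ENSMUSG00000027447). Its levels were 374 and 347 CPM in ctrl, and 435, 341 and 346 CPM in cko. Cko 1 was the highest library, and cko 2 and cko 3 were level with ctrl 3. The log2 fold change was 0.05 (95% interval -0.23 to 0.33; edgeR adjusted p = 0.805), and the interval holds folds from 0.853 to 1.26. Its lower bound on the log2 scale, -0.23, lies above the upper bounds of *Apoe* (-0.45) and *Clu* (-0.39).

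Among the 9 tested cystatins and cysteine proteases beside *Cst3*, 1 was higher and 2 were lower, with a median of -0.08. The shares of all tested genes were 7.86% and 8.57%. The intracellular inhibitor *Cstb* rose from 11.3 and 11.0 CPM to between 14.8 and 16.3 CPM (log2 fold change 0.50, edgeR adjusted p = 0.0349). The proteases *Ctsf* and *Ctsc* fell by 0.58 and 0.84 on the log2 scale (edgeR adjusted p = 0.0286 and 0.0392). *Ctsb*, 1 of the listed proteases, measured 523 and 363 CPM in ctrl and 340, 279 and 269 CPM in cko (log2 fold change -0.58, edgeR adjusted p = 0.0523). *Ctsl*, another listed protease, measured 130 and 114 CPM in ctrl and 133, 118 and 120 CPM in cko (log2 fold change 0.013, edgeR adjusted p = 0.941). The ratio of *Cst3* to *Ctsb* was 0.715 and 0.957 in ctrl and 1.28, 1.22 and 1.28 in cko, which do not overlap (exact permutation p = 0.1, the smallest possible; adjusted p = 0.15).

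**Figure D4:**
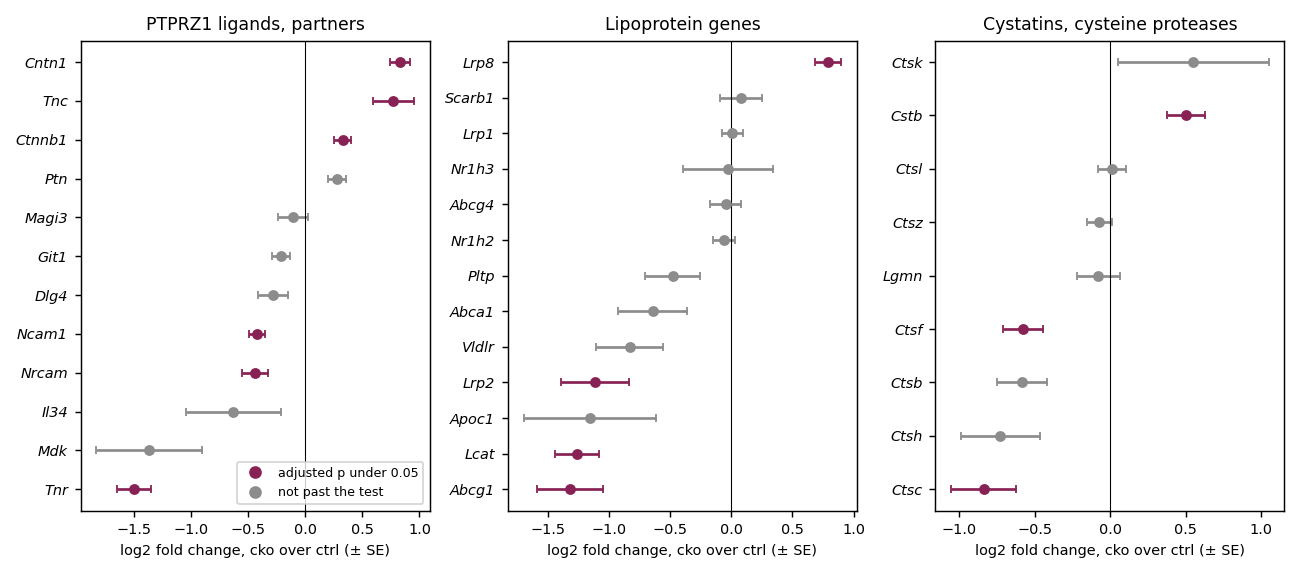
Log2 fold change of cko over ctrl with its standard error for the ligands and partners of PTPRZ1 (left), lipoprotein genes (middle) and cystatins with their proteases (right), with genes past an edgeR adjusted p of 0.05 in purple. Each panel held genes on both sides of 0, such as *Lrp8* at 0.79 and *Lcat* at -1.26.

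The level of the 10 genes was compared per kilobase of exon, since longer transcripts collect more counts. In ctrl, *Fabp7* (1519 CPM per kb) and *Apoe* (1231) were the highest, followed by *Cst3* (285) and *Ptprz1* (246), and then by *Msi2* (31.3), *Clu* (23.6), *Msi1* (21.0), *Nr2e1* (12.3), *Hopx* (3.46) and *Prom1* (2.87). In cko the order was *Fabp7* (1698), *Apoe* (586), *Cst3* (295), *Ptprz1* (243), *Msi2* (27.2), *Msi1* (19.3), *Clu* (11.2), *Nr2e1* (10.6), *Prom1* (4.66) and *Hopx* (3.73). The order changed at *Clu* and *Msi1* and at *Hopx* and *Prom1*. Ctrl 1 held more of each of the 10 genes than ctrl 3, by ratios from 1.02 to 1.41, where 50.6% of tested genes were higher in ctrl 1. Cko 1 was the highest cko library for 7 of 10 genes, against 36.3% of tested genes. The 10 genes together summed to 9255 and 8728 CPM in ctrl and to 8988, 7071 and 7122 CPM in cko, so that cko 1 lay inside the range of ctrl.

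Other radial glia and NSC regulators gave a mixed picture as well. Of 16 transcription factors, filaments and related genes, all were tested, and 5 were higher and 3 were lower at an edgeR adjusted p under 0.05, with a median of 0.26. The Notch target *Hes5* measured 72.8 and 69.2 CPM in ctrl and 137, 140 and 129 CPM in cko (log2 fold change 0.93, edgeR adjusted p = 0.0011). *Nes*, which encodes the filament nestin, and *Lhx2*, a cortical selector gene, were higher by 0.98 and 0.65 on the log2 scale (edgeR adjusted p = 0.0029 and 0.0052). *Hes1*, another Notch target, measured 20.1 and 26.6 CPM in ctrl and 12.1, 11.2 and 10.8 CPM in cko (log2 fold change -1.04, edgeR adjusted p = 0.0059). *Slc1a3*, the glutamate transporter of radial glia and astrocytes, and *Gli3* were lower by -0.79 and -1.04. *Sox2*, *Pax6* and *Vim* had log2 fold changes of 0.12, -0.032 and 0.43 and did not pass.

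Genes of quiescent and of activated NSCs were set beside the 10 genes, since adult NSCs move between these states. Of 18 quiescent NSC genes, 1 was higher and 11 were lower at an edgeR adjusted p under 0.05, with a median of -0.96, but *Aldoc*, *Gja1*, *Slc1a2* and *Aldh1l1* of this list are also astrocyte markers. *Gpr37l1*, a receptor of glia, measured 50.2 and 61.5 CPM in ctrl and between 25.3 and 26.7 CPM in cko (log2 fold change -1.10, edgeR adjusted p = 0.0018). *Cpe*, a peptidase, and *Mt1*, a metallothionein, were lower by -1.14 and -0.67, and *Id2* was the 1 gene that was higher, by 0.65. The count of 11 fell to 3 without cko 2 and to 4 without cko 3. Of 18 activated NSC genes, 9 were higher and 1 was lower, with a median of 0.70. *Ccnb1*, *Mki67* and *Cdk1*, which act in mitosis and its entry, were higher by 1.33, 1.30 and 1.29 on the log2 scale, and *Fgfr1* was lower by -0.48. The medians of both lists were farther from 0 than the median of the 10 radial glia and NSC genes, -0.07.

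Like *Apoe* and *Clu*, many of the genes named beside the members rested on single libraries. Of 34 such genes past the test, 18 stayed past it whichever library was left out, among them *Hes5*, *Nes*, *Hes1*, *Moxd1*, *Itgb5*, *Cntn1*, *Tnr*, *Lrp8*, *Lcat*, *S100b* and *Dcx*, and the other 16 lost it in at least 1 of the 5 fits, although none of the 34 changed sign. Leaving out cko 2 ended the call of each of these 16, so the split of 18 and 16 does not rest on the fits with 1 ctrl library. The highest adjusted p that edgeR gave over the 5 fits was 0.0536 for *Slc1a3*, 0.113 for *Gli3*, 0.123 for *Tnc*, 0.141 for *Fabp3*, 0.161 for *Ctnnb1*, 0.0742 for *Ncam1* and 0.152 for *Nrcam*. It was 0.087 for *Abcg1*, 0.135 for *Lrp2*, 0.155 for *Cstb*, 0.116 for *Ctsf* and 0.140 for *Ctsc*. It was 0.115 for *Hdac1*, 0.212 for *Kdm1a*, 0.0691 for *Id2* and 0.0658 for *Fgfr1*. Without cko 3 the call was lost for all of the 16 but *Slc1a3*. Without ctrl 1 it was lost for *Gli3*, *Fabp3*, *Nrcam* and *Ctsf*, without ctrl 3 for *Lrp2*, *Ctsc* and *Kdm1a*, and without cko 1 for *Fabp3*, *Ctnnb1*, *Abcg1*, *Lrp2*, *Cstb*, *Ctsc* and *Kdm1a*.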

How the data were processed

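RNA-seq was performed on E14.5 NSCs of 2 genotypes. After FastQC and NGSQC, the authors aligned the reads to mm10 by HISAT2. They deposited 6 columns labelled by sample for Ensembl genes, of which 5 hold raw counts, not normalized, and that of ctrl replicate 2 holds a rounded mean. The labels' processing notes name GRCm39, and the deposited columns hold gene IDs without coordinates. The counting tool, annotation and strand setting are not given in the sources used here, so that overlapping and antisense genes are uncertain. GENCODE M21 on GRCm38 gave names and positions for 31836 of 32493 IDs. The targeted miRNA is not among the genes analysed here.

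The counts of 5 libraries were fitted by edgeR 4.0.16 under R 4.3.3. After filterByExpr and TMM scaling, genotypes were compared by its quasi-likelihood test, with Benjamini-Hochberg adjustment over 16710 genes. Intervals are 95% intervals of the fitted difference, and errors are SD over libraries. Ratios of 2 genes, which were not in the plan of tests, were compared by two-sided exact permutation tests. *Prom1* and *Apoe* alone did not overlap between the genotypes, so the ratios of each to another gene are not separate evidence. Promoter windows were from RefSeq on GRCm38.p6. The steps were tested on simulated data of this size, in which the share of false calls at an adjusted p under 0.05 was above the nominal level with both edgeR and DESeq2, so that adjusted p-values just under 0.05 are less strict than they read. The floor of 3 counts covers counting error only.

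Alternatives were the DESeq2 1.42.0 test, size factors by median of ratios, library totals, an unfiltered table, a minimum of 10 counts per library, each library omitted in turn, a block for the replicate number, all 6 columns, and the study's limits. The members, the lists and the rule for naming were chosen with earlier results of these data known: all 10 members, and from each list at most 3 genes per direction, by smallest p among those past the test without overlap, were named, with ligands, receptors, partners, paralogs and targets of a member named whatever their call. The counts of quiescent and activated genes under the alternatives and the omission of libraries for listed genes were added after the values were seen. Some listed genes are not reported here and were left out of the list counts. Figures were drawn with matplotlib 3.10.9.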

Additional observations from a re-analysis of the deposited data

How the results depend on the processing

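Of 130 values of single members under the alternatives, 112 kept their direction and side of the threshold, 7 were no longer past it, 4 came past it and 7 changed sign, all of the last for genes that did not pass. With 1 library left out, the ranges of those genes were -0.086 to 0.010 for *Ptprz1* (0.0032 without cko 3), -0.13 to 0.21 for *Hopx*, -0.079 to 0.11 for *Cst3*, -0.31 to 0.10 for *Msi1* and -0.39 to 0.021 for *Msi2*. The number of members that were higher was 0 at the study's limits and 1 in the other alternatives. The number that were lower was 0 with DESeq2, 3 with all 6 columns, 2 without cko 1, and 0 without cko 2 or cko 3. A fit without ctrl 1 or ctrl 3 holds 1 ctrl library, so its p-values carry no spread of ctrl. Over all tested genes, 1314 were higher and 1432 lower. With 1 library left out these counts ran from 317 to 1812 and from 416 to 2062. All 6 columns gave 2865 and 2794, and the study's limits gave 399 and 696. Without the filter 2237 were lower. The cause of these changes was not tested.

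A block for the replicate number left 1 member higher and 2 lower in the 5 libraries, with 918 and 1065 genes, and *Ptprz1* at 0.016. With the block and all 6 columns, 3 members were lower, and 2675 and 2673 genes were higher and lower. The shared numbers were not used as pairs: deviations from the genotype mean correlated at 0.143 for number 1 and 0.0507 for number 3 over 16710 genes. Ctrl 3 and cko 2, which differ in number, correlated at 0.116. With 2 ctrl libraries the deviations of ctrl 1 and ctrl 3 are equal and opposite, so these values cannot decide on pairing.

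With 2 ctrl and 3 cko libraries, an exact test of 1 value cannot go below 0.1, and a member that did not pass is bounded only by the interval given.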
